A study of Danio rerio with 2 samples.

Results

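The genes described here are those that build fatty acids, triglycerides and phospholipids and load them onto lipoproteins for export from the liver. They were listed by symbol under their known roles, as 40 zebrafish symbols. Of these, 37 matched a gene ID in the count tables, and together they led to 40 IDs out of 31953 listed. A symbol ending in a or b that was absent was matched without that letter. Some IDs thus stand for either paralog of a pair, and some may belong to a paralog that was not listed. The symbols fads2, mogat3a and tm6sf2 matched no ID and were not analysed here.

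The livers came from man1a2 morphants, larvae that received an antisense morpholino against man1a2 at the one-cell stage, and from uninjected control larvae. man1a2 encodes a Golgi mannosidase that trims N-linked glycans. All larvae were 5 days post fertilization, and RNA from 3 batches of livers was pooled into 1 morphant library of 19783886 counts and 1 control library of 19658335 counts. The labels give 100 livers, per batch or in all. The methods of the study name an ATG and a splicing morpholino at several doses. Neither the methods nor the labels say which went into the sequenced pool, or which of several transgenic lines the livers carried. MAN1A2 itself (ENSDARG00000041728) had 195 morphant and 193 control reads, a log2 ratio of -0.09 (95% interval -0.39 to 0.20). A morpholino that blocks translation leaves the mRNA in place and a count per gene does not show splicing, so this value does not check the label. Control larvae received no injection, so the knockdown and the injection cannot be told apart. With 1 library per group, no difference below has a replicate check, and every interval covers counting error only. In bulk RNA of this kind fewer cells of a type and less RNA per cell cannot be told apart.

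Fatty acids are made in the cytosol of hepatocytes from acetyl-CoA, which is carboxylated to malonyl-CoA and joined into palmitate. Desaturases and elongases then convert palmitate and dietary fatty acids into longer and less saturated chains. Acyl chains are placed on glycerol 3-phosphate to give phosphatidic acid, the branch point between triglycerides and phospholipids, and triglycerides leave the liver in lipoproteins that contain apolipoprotein B. In vertebrate liver the early enzymes of this route are classic targets of the sterol regulatory element-binding proteins (SREBPs), of the carbohydrate-responsive factor ChREBP and of liver X receptors.

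Among the enzyme genes, the largest differences lay in de novo synthesis, desaturation and elongation. The desaturase gene scd, the elongase gene elovl2 and the ELOVL7 ID were more than 2-fold higher in the morphant library. So were an acly ID, acaca and fasn of de novo synthesis, whereas acacb and me1 of that step were lower by less than 2-fold. All 6 listed elongase IDs lay above 0, beside 7319 of the 14241 genes tested, with log2 ratios between 0.51 and 1.68. Among the listed genes at the end of triglyceride assembly the direction was mostly the opposite, with lpin1, dgat2 and a dgat1 ID lower in morphants. Triglyceride genes outside the list had 6 tested IDs above 0 and 5 below. They are not limited to these last steps, so this count does not compare the same steps. Every tested phospholipid and export ID differed by less than 1.5-fold. Log2 ratios are of morphants over controls, from counts scaled by median-of-ratios size factors with 0.5 added. A gene was called when it was 2-fold or more apart and its mean normalized count was 10 or more, or, as a weaker criterion, when it passed the read test. That test is an exact binomial test of the reads with a Benjamini-Hochberg adjusted p under 0.05 over all genes tested and a fold of at least 1.2, and it compares the 2 libraries, not the conditions.

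The members were chosen with earlier results of these data known, so their shares beside those of all genes are description only. By the first criterion, 7 of the 36 IDs that reached this mean were 2-fold or more apart (19.4%), against 7.44% of the 14241 genes tested. Of them, 6 were higher in morphants, where the share of all genes was 3.3%, and 1 was lower, where it was 4.14%. By the read test, 20 of 37 IDs were called (54.1%), against 26% of 15732 genes, with 11 higher and 9 lower, beside 13% of all genes in each direction. The IDs had more reads than most genes, with a median mean normalized count of 508 against 156 over all genes tested, and a read test calls smaller differences at higher counts. Among the 27 IDs with a mean of at least 100, 4 were 2-fold apart, where 2.68% of all genes were, and 17 were past the read test, where 32.6% were. The median log2 ratio was 0.06, beside 0.014 over all genes tested, with 21 IDs above 0 and 15 below. Of the 40 IDs, thrsp and scdb had 0 reads in both libraries and MOGAT2 had 1 morphant and 2 control reads. A CEPT1 ID (ENSDARG00000058716), with 9 and 10 reads, had a mean under 10.

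**Figure D1:**
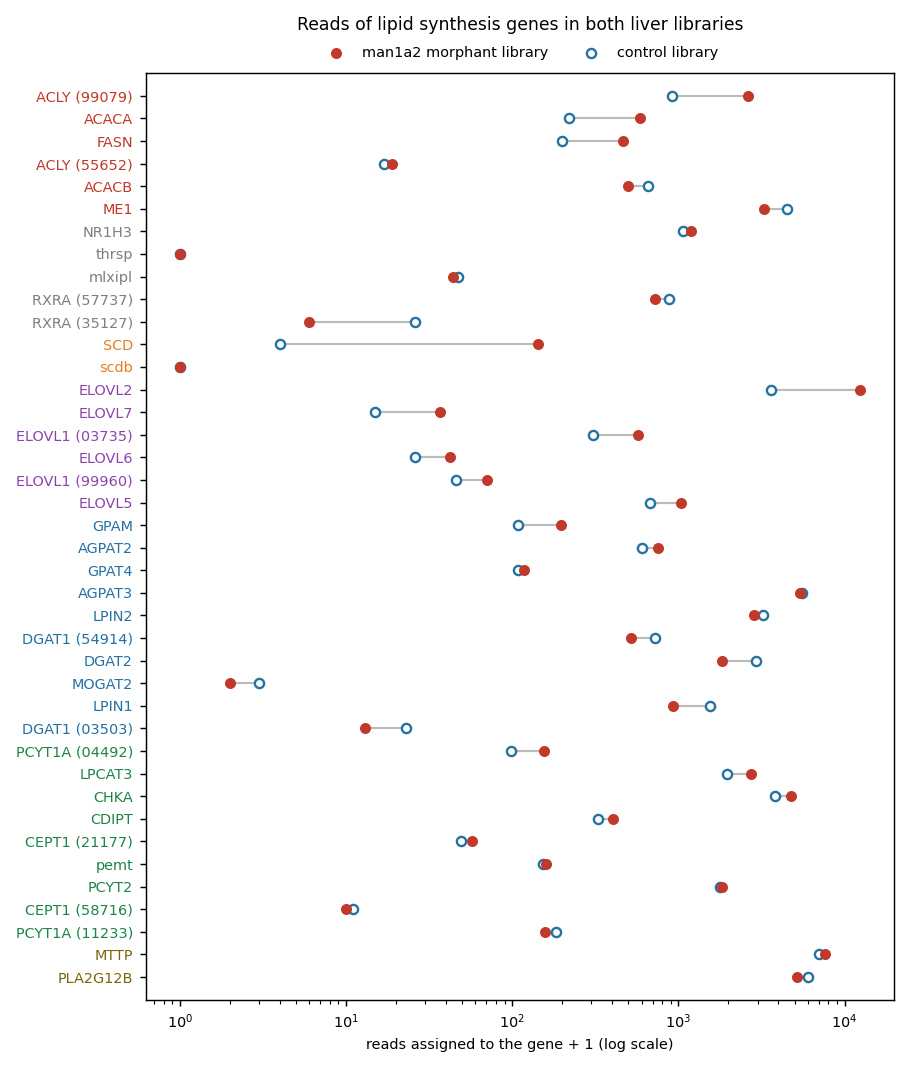
Reads of the 40 gene IDs in the man1a2 morphant library (filled red points) and the control library (open blue points), as reads + 1 on a log axis, with 1 row per ID, label colours by role and, for symbols with several IDs, the last 5 digits of the ID. SCD spans the widest gap, 143 morphant against 3 control reads, and ELOVL2 has the highest morphant count, 12442.

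De novo fatty acid synthesis was represented by 6 IDs. Of these, 3 were 2-fold higher in morphants, beside 3.3% of all genes, and 0 were 2-fold lower, beside 4.14%. Summed over the 6 IDs there were 7457 morphant and 6488 control reads, and the log2 ratio of the scaled sums was 0.09. me1, which was lower in morphants, had the most reads of them in both libraries. acly encodes ATP citrate lyase, which cleaves citrate from mitochondria into cytosolic acetyl-CoA. Its ID ENSDARG00000099079 had 2612 reads in the morphant library, against 911 in the control library, a log2 ratio of 1.41 (interval 1.303 to 1.52). A further ID under the same symbol, ENSDARG00000055652, had 18 morphant and 16 control reads, and its interval of -0.99 to 1.13 allows a difference of either sign.

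acaca encodes the cytosolic acetyl-CoA carboxylase whose malonyl-CoA feeds fatty acid synthase. It had 590 morphant and 219 control reads (log2 ratio 1.32, interval 1.096 to 1.55). fasn, the synthase itself, had 462 morphant and 198 control reads (1.11, interval 0.87 to 1.36). These genes form consecutive steps from citrate to palmitate, and by log2 ratio among all genes tested they stood at percentiles 98.5 for acly, 98.2 for acaca and 97.4 for fasn.

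The remaining genes of this step were lower. acacb encodes the carboxylase of the mitochondrial surface, known in mammals for malonyl-CoA that restrains fatty acid import into mitochondria. It had 500 morphant and 653 control reads, a log2 ratio of -0.49 (interval -0.66 to -0.32). me1, the cytosolic malic enzyme that supplies NADPH, had 3275 morphant and 4491 control reads (-0.56, interval -0.63 to -0.50). Both fell past the read test, though neither reached 2-fold. The read test called 5 of the 6 IDs of this step, 3 higher and 2 lower, beside 13% of all genes in each direction. The carboxylase paralogs thus lay on opposite sides of 0 with intervals that did not overlap.

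Desaturation was represented by a single gene with reads. scd encodes stearoyl-CoA desaturase, which places the first double bond into saturated chains and so makes oleate. SCD (ENSDARG00000033662) had 143 reads in morphants and 3 in controls, with a log2 ratio of 5.26 and an interval of 3.89 to 7.76. With a pseudocount of 5 the log2 ratio was 4.14, so its size depends on this choice. The interval, which carries no pseudocount, is wide because the control library held so few reads, but its lower end lies above the ratio of every other listed gene. It stood at percentile 99.9 of all genes tested by log2 ratio, and its adjusted p in the exact binomial test was 6.74e-35.

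All 6 listed elongase IDs, which the 7 elongase symbols shared, were above 0, beside 7319 of the 14241 genes tested. elovl2, which in vertebrates extends polyunsaturated chains towards docosahexaenoic acid, had 12442 morphant and 3602 control reads, a log2 ratio of 1.68 (interval 1.63 to 1.73). elovl5, which acts on shorter polyunsaturated chains, had 1031 morphant and 673 control reads (0.51, interval 0.37 to 0.65). Both were past the read test, as was the ELOVL1 ID ENSDARG00000103735, of the family member that elongates saturated and monounsaturated very long chains, with 573 morphant and 307 control reads (0.79, interval 0.59 to 0.997).

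Reads were fewer for the other listed elongases. The single ELOVL7 ID, matched by both elovl7a and elovl7b, had 36 morphant and 14 control reads (log2 ratio 1.23, interval 0.33 to 2.26). It was also past the read test (adjusted p = 0.017, exact binomial). elovl6, which extends palmitate to stearate, had 41 morphant and 25 control reads (log2 ratio 0.60), with an interval of -0.15 to 1.39. The second ELOVL1 ID (ENSDARG00000099960) had 70 and 45 reads in the same order, with an interval of -0.03 to 1.104. A difference was not detectable at this depth for these last ones. Summed over the 6 IDs, elongases took 14193 morphant and 4666 control reads, of which elovl2 made up 87.7% in morphants and 77.2% in controls. Without elovl2 the sums were 1751 and 1064 reads, and the log2 ratio of the scaled sums was 0.61 in place of 1.50. The read test called 4 of the 6 IDs, all higher, where 13% of all genes were. Elongases outside the list were not uniformly higher. elovl8b had 679 morphant and 506 control reads (0.32) and was past the read test. ELOVL3 (0.13) and the ELOVL4 ID ENSDARG00000006773, with 9 morphant and 11 control reads (-0.38), were not.

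**Figure D2:**
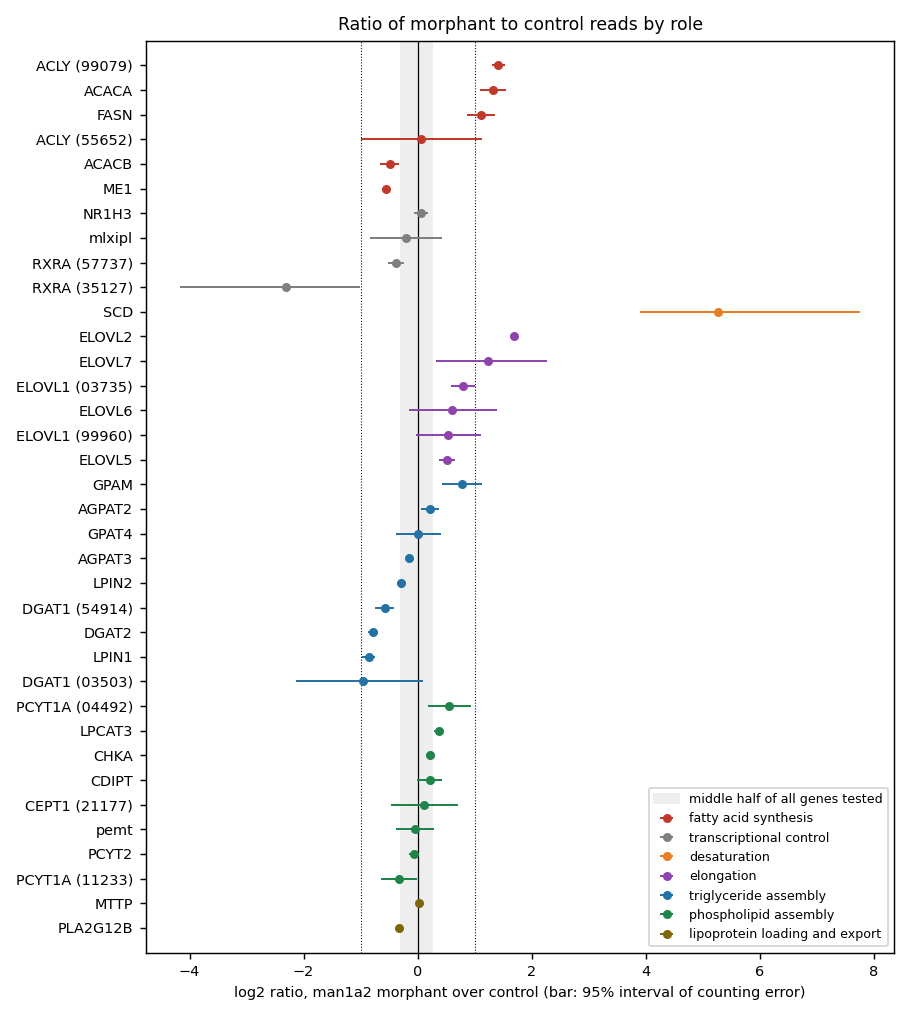
Log2 ratio of the man1a2 morphant over the control library for the 36 gene IDs whose mean normalized count reached 10, coloured by role, with bars for the 95% interval of counting error. The grey band holds the middle 50% of all genes tested and dotted lines mark 2-fold. All 6 elongase IDs lie to the right of 0, beside 7319 of 14241 genes tested. Of the triglyceride IDs, 6 of 9 lie to the left, beside 6922 of 14241.

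Of the transcriptional regulators on the list, 4 IDs entered the read test. It called 0 higher and 2 lower, beside 13% of all genes in each direction, and with so few IDs these counts say little. nr1h3, the liver X receptor alpha gene, had 1188 morphant and 1058 control reads, a log2 ratio of 0.06 (interval -0.06 to 0.18). mlxipl, which encodes ChREBP, had 43 morphant and 46 control reads (-0.20, interval -0.84 to 0.43). The retinoid X receptor is the common partner of nuclear receptors of this kind. Its 2 IDs under RXRA were lower in morphants, ENSDARG00000057737 with 721 morphant and 872 control reads (-0.38, interval -0.53 to -0.24) and ENSDARG00000035127 with 5 morphant and 25 control reads (-2.31, interval -4.17 to -1.02). The list names rxraa alone, and the symbol does not tell which of these IDs it is. ENSDARG00000035127 was the only ID counted here that was 2-fold lower. It rests on few reads, with a log2 ratio of -1.66 at a pseudocount of 5. thrsp, a lipogenic response gene of mammalian liver, was at 0 in both libraries, so counts of up to 3 in each cannot be told from none.

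Triglyceride assembly begins with acylation of glycerol 3-phosphate. gpam, the mitochondrial acyltransferase of this first step, was higher, with 197 morphant and 107 control reads (log2 ratio 0.77, interval 0.43 to 1.13). gpat4, which does the same step in the endoplasmic reticulum, had 116 morphant and 107 control reads (0.01, interval -0.38 to 0.40). Next come the acyltransferases that make phosphatidic acid. agpat2 had 751 morphant and 601 control reads (0.21) and agpat3 had 5371 and 5524 in the same order (-0.15), and both stayed below a fold of 1.2.

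The tested IDs listed for later steps were lower in the morphant library. Lipins dephosphorylate phosphatidic acid to diacylglycerol. lpin1 had 925 morphant and 1557 control reads, a log2 ratio of -0.86 (interval -0.98 to -0.74), and lpin2 had 2858 morphant and 3234 control reads (-0.29, interval -0.36 to -0.21). The final acylation to triglyceride is carried out by the unrelated enzymes DGAT1 and DGAT2.

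dgat2 had 1823 morphant and 2911 control reads (log2 ratio -0.78, interval -0.87 to -0.70). Of the 2 IDs under DGAT1, ENSDARG00000054914 had 520 morphant and 721 control reads (-0.58, interval -0.74 to -0.41). The other, ENSDARG00000103503, had 12 morphant and 22 control reads (-0.95), and its interval of -2.13 to 0.10 included 0. In all, the read test called 5 of 9 IDs of triglyceride assembly, 1 higher and 4 lower, beside 13% of all genes in each direction. None was 2-fold apart, beside 7.44% of all genes tested. Of the 4 lower, lpin2 was below 1.2-fold under scaling by total counts. gpam, of the entry step, and dgat2 and lpin1, near the end, lay on opposite sides of 0 with intervals that did not overlap. These intervals hold counting error alone, and gpat4, of the same entry step, had a log2 ratio of 0.01. Among 11 tested IDs of other triglyceride genes, not limited to the last steps, the read test called 3 higher and 1 lower. Their median log2 ratio was 0.06. mogat3b was called higher, with 1044 morphant and 712 control reads (0.44, interval 0.31 to 0.58). The lower one was PLIN2, a droplet coat gene. MOGAT1 had 2769 morphant and 2393 control reads (0.10) and was not past the read test.

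Phospholipid assembly differed less. pcyt1aa matched both IDs under PCYT1A, which activates phosphocholine in the rate-setting step of phosphatidylcholine synthesis. ENSDARG00000004492 had 154 morphant and 97 control reads (log2 ratio 0.56, interval 0.18 to 0.94), whereas ENSDARG00000011233 had 156 morphant and 182 control reads (-0.33, interval -0.65 to -0.01). The first was past the read test and the second was not. lpcat3, which inserts polyunsaturated chains into phosphatidylcholine, rose with 2743 morphant and 1969 control reads (0.37, interval 0.29 to 0.45).

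The other phospholipid genes were not past the read test. chka, which phosphorylates choline, had 4791 morphant and 3834 control reads (log2 ratio 0.21), a fold just under 1.2. cdipt, the phosphatidylinositol synthase gene, had 406 morphant and 326 control reads (0.21). For pcyt2 of the ethanolamine branch (-0.06, interval -0.16 to 0.03), pemt, which methylates phosphatidylethanolamine (-0.05, interval -0.38 to 0.28), and the CEPT1 ID ENSDARG00000021177 (0.11, interval -0.47 to 0.70), intervals included 0. The read test called 2 of 9 IDs, both higher, a share no larger than the 26% of all genes.

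Export was represented by mttp, whose product transfers lipid onto nascent apolipoprotein B, and by pla2g12b, a secreted phospholipase A2 family member needed for normal lipoprotein secretion in mouse and zebrafish. mttp had 7612 morphant and 6966 control reads, a log2 ratio of 0.02. Its interval of -0.03 to 0.07 limits any difference between these libraries to under 1.2-fold. pla2g12b had 5152 morphant and 6006 control reads (-0.33, interval -0.38 to -0.28) and was past the read test.

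**Figure D3:**
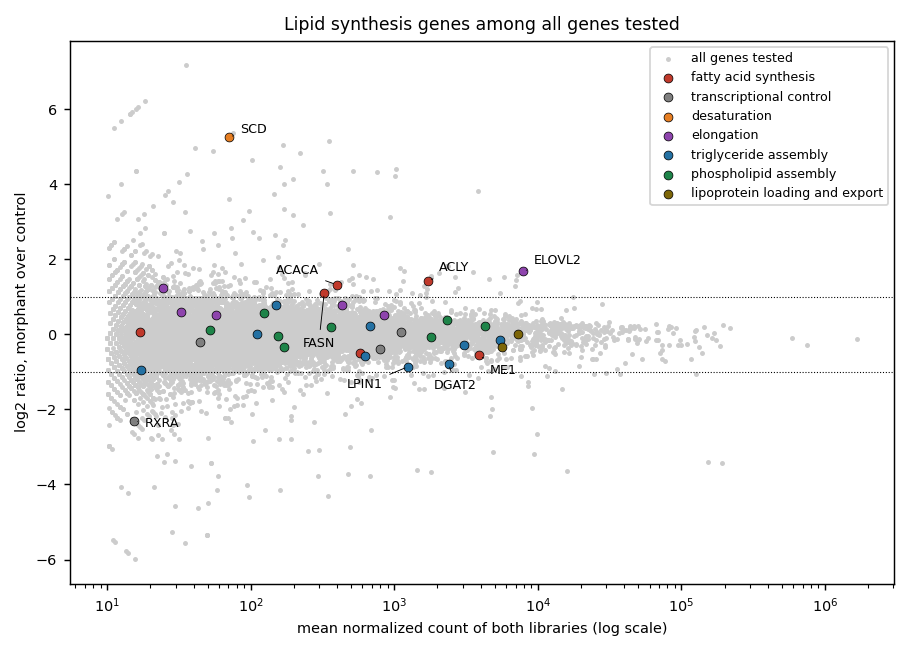
Log2 ratio of morphant over control against the mean normalized count of both libraries (log axis) for all 14241 genes tested (grey) and the 36 listed IDs with a mean of at least 10 (coloured by role). Dotted lines mark 2-fold, and ELOVL2 (1.68) and ACLY (1.41) lie above the cloud of genes with similar counts, while LPIN1 (-0.86), DGAT2 (-0.78) and ME1 (-0.56) lie on its lower side within 2-fold.

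Variation between pools does not enter the read test. With edgeR's exact test and the blind dispersion of DESeq2, which treats both libraries as 1 group and so counts any true difference as noise, 3 IDs remained past the threshold, where 0.744% of all genes were. They were SCD (adjusted p = 0.000214, edgeR exact test), ELOVL2 (adjusted p = 2.69e-05, edgeR exact test) and ACLY (adjusted p = 0.00555, edgeR exact test). With the coefficient of variation set to 0.2, SCD (adjusted p = 1.63e-11) and ELOVL2 (adjusted p = 0.00773) passed edgeR's exact test and ACLY did not (adjusted p = 0.0563). With 0.4, SCD alone of the 40 IDs passed, at an adjusted p = 0.00821 in edgeR's exact test. acaca and fasn passed none of these, with adjusted p = 0.113 and 0.307 in edgeR's exact test at 0.2. Scaling by total counts moved the median log2 ratio of all genes tested by 0.10. It left every listed ID past the read test on its side of 0, but lpin2 (-0.19) and pla2g12b (-0.23) then differed by less than 1.2-fold, and agpat2, chka and cdipt, all near 0.31, passed. The split of listed calls became 14 higher and 7 lower, and that of all calls became 68.4% higher, against 49.99% under the main scaling.

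Other genes of the pathway, taken from lists by role, gave 105 further IDs, of which 87 had a mean of at least 10. Their median log2 ratio was -0.06. Of them, 5 were 2-fold higher and 3 were 2-fold lower in morphants, where all genes gave 3.3% and 4.14%. The read test called 22 higher and 15 lower out of 92, where all genes gave 13% in each direction. The 2-fold higher genes included ACSL4 (ENSDARG00000004078), an acyl-CoA synthetase that prefers arachidonate, with 295 morphant and 52 control reads (2.39, interval 1.97 to 2.85). Another ID under ACSL4, ENSDARG00000010752, had 19 morphant and 22 control reads (-0.31), and its interval of -1.29 to 0.63 included 0. Also 2-fold higher were acsl1b, with 91 morphant and 38 control reads (1.14), and AGPAT4, with 27 and 9 in the same order (1.43). apobb.2, an apolipoprotein B paralog, had 282 morphant and 114 control reads (1.196), whereas apobb.1 had 25378 and 44657 (-0.92) and APOB, matched to apoba, had 6033 and 8931 (-0.67). Near-identical copies can share reads, also among the listed IDs that share a symbol, and how the counting split them is not given in the sources used here.

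Among the other regulators, 17 of 19 IDs lay below 0, beside 6922 of 14241 genes, and the median log2 ratio was -0.27. This count depends on the scaling, since total counts moved the median of all genes tested up by 0.10. PRKAG1 (-0.02), PRKAA1 (-0.03), rxrbb (-0.07) and HNF4A (-0.09) lay within that shift below 0. Of the 19 IDs, the read test called 5 lower and 2 higher, beside 13% of all genes in each direction, and several of the others had intervals that included 0. insig1, which retains SREBPs in the endoplasmic reticulum and is itself a target of theirs, was an exception with 2441 morphant and 978 control reads (1.21, interval 1.104 to 1.32). srebf2, whose product favours cholesterol genes, was the other, with 1954 morphant and 1346 control reads (0.43, interval 0.33 to 0.53). srebf1, whose product favours fatty acid genes, had 166 morphant and 191 control reads (-0.31, interval -0.62 to -0.0024) and was not past the read test. SCAP, the escort of SREBPs to the Golgi, fell, with 406 morphant and 664 control reads (-0.82, interval -0.999 to -0.64). The ChREBP relative MLXIP (64 morphant and 122 control reads, -1.03) and the PPARA ID (9 and 20 in the same order, -1.21) were 2-fold lower, and PPARA was not past the read test. The phospholipid acyltransferase MBOAT2 (ENSDARG00000031845), of another list, was also 2-fold lower with 26 morphant and 51 control reads (-1.06).

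Supply of NADPH and acetyl-CoA did not move one way. PGD, of the pentose phosphate route, had 9301 morphant and 6072 control reads (log2 ratio 0.51). The citrate carrier SLC25A1 (ENSDARG00000076381) had 2559 morphant and 3507 control reads (-0.56), and IDH1 had 9755 and 11438 (-0.34). The read test called 3 of 12 IDs higher and 3 lower, beside 13% of all genes in each direction. None was 2-fold apart, beside 7.44% of all genes tested.

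**Figure D4:**
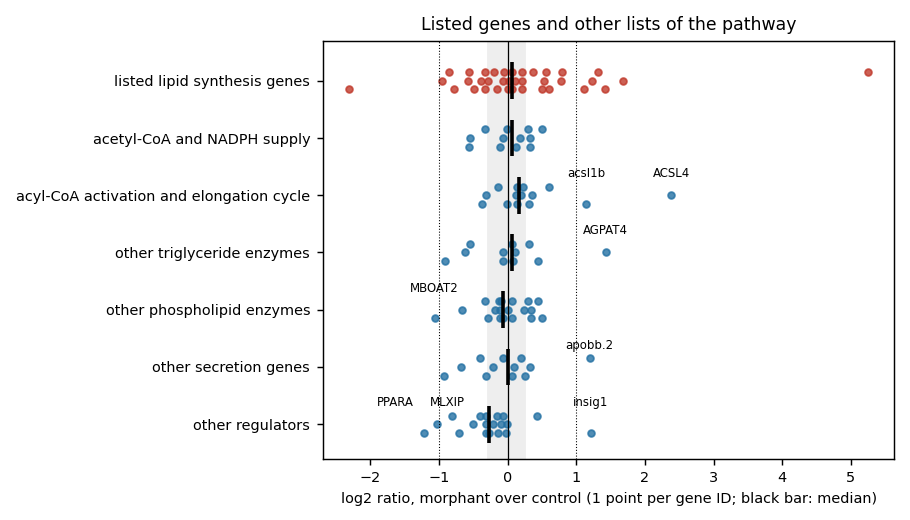
Log2 ratios, morphant over control, of the 36 listed IDs (red) and of 6 further lists of the pathway (blue), 1 point per gene ID whose mean normalized count reached 10, small vertical offsets for legibility only, and a black bar for each list's median. The grey band holds the middle 50% of all genes tested, dotted lines mark 2-fold, and the regulator list has the lowest median, -0.27.

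The livers carried the markers their label calls for, and markers of other tissues also differed between the libraries. All 20 hepatocyte markers were detected, and they took 21.9% of morphant and 23.1% of control counts, with 1 lower and 0 higher by 2-fold. Of the exocrine pancreas list, 17 of 19 tested IDs were 2-fold higher in morphants, with summed reads of 12942 in morphants and 1156 in controls, and none was at 0 in the morphant library. Epidermal markers summed to 6475 morphant and 4288 control reads, with 6 of 12 tested IDs 2-fold higher, and icn2 had 33 morphant and 0 control reads. Leukocyte markers summed to 568 morphant and 3368 control reads, with 11 of 15 tested IDs 2-fold lower and 1 higher. A single MFAP4 ID (ENSDARG00000090557) gave 226 of these morphant and 2573 of these control reads. Enterocyte markers, from the tissue that shares mttp, dgat2 and pla2g12b with the liver, summed to 86154 morphant and 102494 control reads, and 7 of 24 IDs were at 0 in both libraries, VIL1, FABP6 and both IDs under MEP1B among them. Most of the summed reads came from apoa4b.1, with 43099 morphant and 63276 control reads, and RBP2, with 30788 and 27148 (ENSDARG00000093774). A count per gene does not show which cells these reads came from, so the sum is not a measure of enterocytes. apoa4a of this list had 111 morphant and 3 control reads (log2 ratio 4.89, interval 3.52 to 7.40), in the same direction as SCD. Of 14 IDs of this list in the read test, it alone was called higher and 4 were called lower, beside 13% of all genes in each direction. The log2 ratio of the scaled sums of the list, -0.36, rests mostly on apoa4b.1 and RBP2. It likewise does not measure enterocytes. Erythrocyte markers summed to 1625 morphant and 2275 control reads, skeletal muscle markers to 336 and 199, endothelial markers to 3908 and 4015, and biliary markers to 35480 and 32248. Adipocyte markers summed to 2052 morphant and 1787 control reads, and of 5 tested IDs the read test called 2 higher and 1 lower. Of that list, lepa and lepb were at 0 in both libraries and plin1 had 2 reads in each. An ADIPOQ ID (ENSDARG00000062228) had 6 morphant and 0 control reads, too few for the read test. The genes that were higher in morphants, SCD among them, moved the same way as the pancreas, epidermis and skeletal muscle lists. The biliary list had 9 of 14 tested IDs above 0, beside 51.4% of all genes tested. The log2 ratio of its scaled sums was 0.03. The genes that were lower in morphants moved the same way as the leukocyte and erythrocyte lists, and as 10 of 12 tested endothelial IDs. They also moved the same way as 16 of the 20 hepatocyte markers, whose median log2 ratio was -0.16. With 2 libraries any gene that differs shares a direction with some of these lists, so such a match does not show its source. The part of these tissues in the values above was not tested.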

How the data were processed

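Both deposited tables hold raw counts, the whole number of reads that the authors assigned to each Ensembl gene ID, without normalization. The submitters' processing notes name GRCz10, FastQC and DESeq2. The aligner, the counting program and the handling of shared reads are not given in the sources used here. Poly-A selected, strand-specific libraries were made from pooled RNA. No per-sample column was left unused (0).

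Counts were read into R 4.3.3. Size factors were the median of ratios of DESeq2 1.42.0 (1.04 for morphants, 0.963 for controls). Intervals are 95% Clopper-Pearson bounds without the pseudocount. Genes with at least 10 reads over both libraries entered the exact binomial read test, 2-sided, adjusted over all of them. Its adjusted p and 1.2-fold thresholds are those of the study, whereas the 2-fold criterion and the minimum counts were set here. With 1 library per group the usual tests of edgeR (quasi-likelihood) and DESeq2 could not be fitted, so edgeR 4.0.16's exact test with a blind or assumed dispersion was run as an alternative, with its p-values adjusted likewise. Under the blind dispersion the coefficient of variation had a median of 0.271 over 14241 genes. PCR copies are not independent molecules, and the p-values measure read sampling between 2 libraries alone.

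Symbols came from a name table that paired 26121 IDs (81.7%) with a symbol, often in the capitals of the human gene. Members are written in lower case as listed, or as in that table where an ID is meant. An ID matched by several symbols was counted once. Of the 40 IDs, 29 were matched by the exact symbol. The members and lists were chosen with earlier results of these data known. All listed IDs are accounted for, those with a mean of at least 10 that were 1.5-fold or more apart get both counts, the ratio and its interval, and of the other pathway lists those 2-fold apart are named. Cell type lists are given as sums and counts. Other genes of those lists, srebf1, srebf2, SCAP, apobb.1, APOB, PGD, SLC25A1 and IDH1 among them, were named after their values were seen. Promoter motifs and sequences were not analysed here.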

Additional observations from a re-analysis of the deposited data

How the results depend on the processing

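No paired analysis was possible because there was 1 library for each group. The count of listed IDs 2-fold apart stayed at 7 under TMM, upper-quartile and total-count scaling, a pseudocount of 5 and a mean of at least 1, and was 4 with a mean of at least 100. Over all genes it was 1059, and 3382 and 229 with those means. The count past the read test stayed between 18 and 23 listed IDs across the scalings, read filters and no minimum fold, but was 3 under the blind dispersion and 2 and 1 with the coefficient of variation set to 0.2 and 0.4, where all genes gave 117, 220 and 43 in place of 4089. Of the 29 IDs matched by the exact symbol alone, an alternative chosen after seeing the data, 5 were 2-fold apart and 14 past the read test. Over all genes tested the shares were 7.44% and 26%. The 29 include thrsp, scdb and MOGAT2, which had too few reads to be tested. With a pseudocount of 5 the log2 ratio of SCD was 4.14 in place of 5.26 and that of RXRA ENSDARG00000035127 was -1.66 in place of -2.31. The median of 0.06 ranged between 0.02 and 0.16. No ID past the read test changed sign. Of the others, gpat4 did so under TMM (-0.0065) and upper-quartile factors (-0.018), mttp under upper-quartile factors (-0.0071), and pcyt2 (0.03) and pemt (0.05) under total counts. The spread between pools of 1 group was not measured, and genes with few reads (SCD in controls, RXRA ENSDARG00000035127, ELOVL7) are limited by depth.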

Other observations

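Genes of the adipocyte list that liver also expresses moved to both sides. CIDEC, which coats and fuses lipid droplets, had 265 reads in morphants and 559 in controls (log2 ratio -1.18, interval -1.40 to -0.97). g0s2, known in mammals as an inhibitor of triglyceride lipase, had 895 morphant and 612 control reads (0.44, interval 0.29 to 0.59), and fabp4a, a fatty acid carrier, had 741 and 445 (0.63, interval 0.46 to 0.80). PLIN2, a droplet coat gene from the triglyceride list, had 89 morphant and 156 control reads (-0.91, interval -1.31 to -0.53). These genes were chosen after their values were seen.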
